A study of Mus musculus with 4 samples.

Results

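The genes described here encode 10 subunits of the SWI/SNF (BAF) chromatin remodeling complexes: Smarca2, Smarca4, Smarcb1, Smarcc1, Smarcc2, Smarcd1, Arid1a, Arid1b, Arid2 and Pbrm1. They were selected by gene symbol alone among the 22667 genes of the expression table, and all 10 were found and passed the minimum of 75 reads summed over the libraries. The cells were N2a, a mouse neuroblastoma line widely used as a model of neural cells. They were transfected for 48 h with a control siRNA or an siRNA to Arglu1, a nuclear receptor coactivator and splicing modulator. Vehicle (Veh, ethanol) or the synthetic glucocorticoid dexamethasone (Dex) at 100 nM was then given for 4 h. This gave siControl and siArglu1 groups, each with Veh and with Dex (siControl Veh and siControl Dex, siArglu1 Veh and siArglu1 Dex), and each group is 1 library made from the pooled mRNA of 3 cultures. With no replicate libraries, the libraries of a pair were compared without a test. The 95% intervals given with ratios are exact and cover counting error only.

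SWI/SNF complexes use the energy of ATP to slide or evict nucleosomes and so open promoters and enhancers to transcription factors, the glucocorticoid receptor among them. Each complex holds a single ATPase, either SMARCA4 (BRG1) or SMARCA2 (BRM). In the canonical BAF and PBAF forms, the shared core includes SMARCB1, SMARCC1, SMARCC2 and a SMARCD protein. ARID1A or ARID1B defines the canonical BAF form, whereas ARID2 and PBRM1 are found in the PBAF form. In neural development, exchanges between paralogous subunits accompany the passage from dividing progenitors to neurons.

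The 4 libraries held 66074574 to 86541444 reads on genes. Arglu1 itself fell from 10165 to 2637 reads in vehicle, which is 26.4% of the control level after scaling (25.2 to 27.5), and from 11825 to 3254 reads in Dex, which is 22.5% (21.7 to 23.4). Of 12 sympathetic neuroblastoma markers, 11 were at 1 cRPKM or more in every library, with a summed level of 1419 to 1932. cRPKM is the number of reads scaled to mappable length and to the size of the library, corrected for mappability. No fibroblast or immune marker reached 1 cRPKM in any library, and of the glial markers only Mbp did so, in the siControl libraries. The siArglu1 libraries differed from their controls with transcript length. Over 12484 genes, Spearman's rho between mappable length and the siArglu1/siControl ratio was -0.40 in vehicle and -0.23 in Dex. For the ratio of Dex to vehicle, rho was -0.16 in siControl and 0.54 in siArglu1. The median log2 ratio of siArglu1 to siControl in vehicle went from 0.33 for genes under 1 kb to -0.52 for those of 8 kb or more. These genes share libraries and are not independent, so the coefficients describe the libraries only. Because subunit genes are mostly long, with a median mappable length of 5.67 kb against 2.71 kb for all genes tested, each is set below beside the 200 tested genes nearest to it in length.

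Levels of the 10 genes spanned more than an order of magnitude in cRPKM. In siControl Veh, Smarcb1 was highest at 117 cRPKM, followed by Smarcd1 at 82.3, Smarca4 at 57.5, Smarcc1 at 54.0, Arid1a at 51.6 and Smarcc2 at 37.3. The 4 lowest were Arid2 at 24.0, Pbrm1 at 16.6, Smarca2 at 14.9 and Arid1b at 9.25 cRPKM. Among these 10, the core genes and Smarca4 therefore had higher transcript levels than Arid2 and Pbrm1. This does not extend to every PBAF subunit, as Phf10, described below, was at 101 cRPKM in siControl Veh. In siArglu1 Dex, the range ran from 6.48 cRPKM for Arid1b to 122 for Smarcb1, and Arid1a (34.7) stood just below Smarcc2 (35.3). That is the only place at which the order of the 10 genes in siArglu1 Dex differed from that in siControl Veh.

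**Figure D1:**
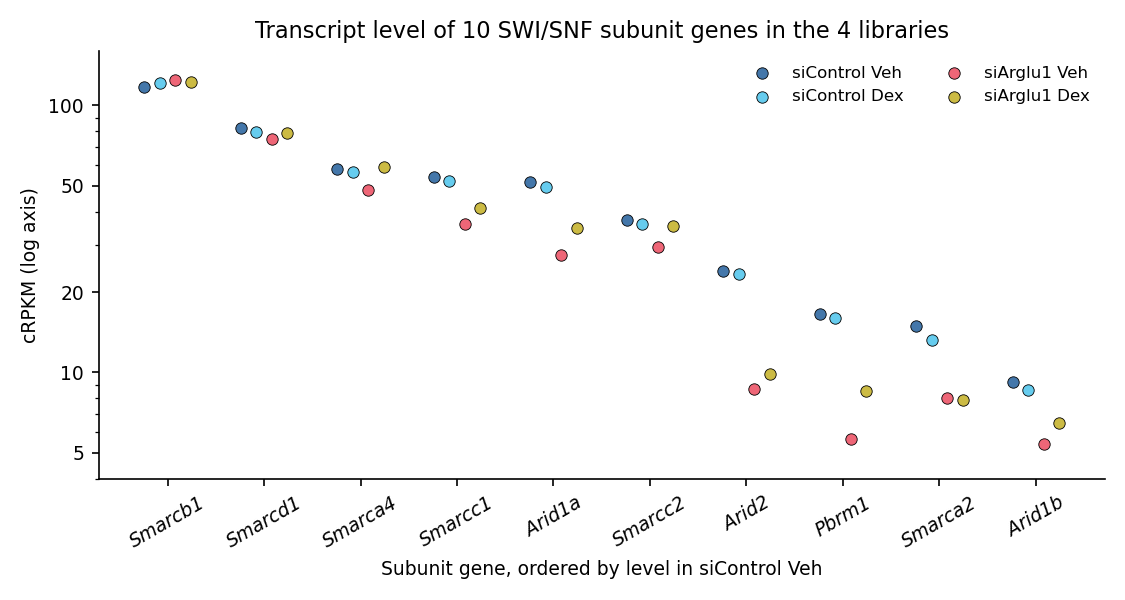
Transcript level of the 10 subunit genes, in cRPKM on a log axis, with 1 point per library and genes ordered by their level in siControl Veh. For Arid2 and Pbrm1, both siArglu1 points lie below both siControl points with a wide gap (8.65 and 9.86 against 23.4 and 24.0 cRPKM for Arid2), whereas the 4 points of Smarcb1 lie between 117 and 124.

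The comparison of siArglu1 with siControl asks what loss of ARGLU1 does to the transcripts of these subunits. In vehicle, 4 of the 10 genes were lower by at least 0.81 on the log2 scale, namely Pbrm1, Arid2, Arid1a and Smarca2, and none was higher. Over all 12497 genes tested, 15.8% passed this size in either direction and 8.77% were lower. In Dex, 2 of the 10, Arid2 and Pbrm1, were lower by that size and none was higher, against 12.1% in either direction and 5.93% lower over all genes. The median log2 ratio of the 10 was -0.65 in vehicle and -0.38 in Dex, while that of all genes tested was 0.00 in both. The vehicle pair and the Dex pair have no library in common. In bulk RNA, fewer cells of a kind and less RNA per cell cannot be told apart, and this holds for every level given here.

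PBRM1 and ARID2, the PBAF subunits, had the largest decreases. Pbrm1 encodes polybromo, a protein with several bromodomains that bind acetylated lysines of histones. It had 5689 and 5910 reads in siControl (Veh and Dex) and 1950 and 3839 in siArglu1 (Veh and Dex), which correspond to 16.6, 15.97, 5.64 and 8.54 cRPKM. Where 4 values of a gene are listed, they follow this order of the libraries. Both siArglu1 libraries were below both controls, and siArglu1 Veh was the lowest of the 4. In cRPKM this order also held for Arid2, Arid1a, Arid1b and Smarcc1. It held as well for Smarcc2 and Smarcd1, whose ratios were near the medians for their length. Its share over all genes was not counted, here or for the genes below. The log2 ratio of Pbrm1 was -1.52 (-1.60 to -1.45) in vehicle, or 34.8% of control, and -0.91 (-0.97 to -0.85) in Dex, or 53.2%. Genes of similar length had a median of -0.28 in vehicle, and 1.5% of those 200 genes had a lower ratio than Pbrm1. In Dex their median was -0.15 and 6.5% were lower. The decrease of Pbrm1 relative to them was thus 1.25 log2 units larger in vehicle and 0.76 larger in Dex.

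Arid2 encodes the AT-rich interaction domain subunit of PBAF, which helps to hold polybromo in the complex. It had 13392 and 14069 reads in siControl (Veh and Dex) and 4873 and 7217 in siArglu1 (Veh and Dex), at 24.0, 23.4, 8.65 and 9.86 cRPKM. The siControl libraries lay close together and both siArglu1 libraries were far below them. Its log2 ratio was -1.44 (-1.48 to -1.39) in vehicle and -1.25 (-1.29 to -1.21) in Dex, that is, 37.0% and 42.0% of control. Of the 200 genes of similar length, 5% had a lower ratio in vehicle and 2.5% in Dex. The differences from their medians, -0.95 and -0.98, were alike in both pairs.

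Pbrm1 was also the gene with the most alternatively spliced exons, and 2 of them are shown because one was included less in siArglu1 Veh while the other stayed level. Capitals mark the alternative exon, and lower case the last 15 bases of the upstream exon and the first 15 of the downstream exon. The positions are those of the splicing tables, for which the submitters' processing notes name mm9, and the bases are from GENCODE M21 transcripts (GRCm38), matched by the length of the exon and of both introns.
Pbrm1 exon of 96 nt, chr14:31858516-31858611: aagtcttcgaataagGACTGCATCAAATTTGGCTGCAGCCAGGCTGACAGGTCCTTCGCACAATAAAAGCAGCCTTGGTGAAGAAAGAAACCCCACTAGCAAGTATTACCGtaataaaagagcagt
Pbrm1 exon of 45 nt, chr14:31869422-31869466: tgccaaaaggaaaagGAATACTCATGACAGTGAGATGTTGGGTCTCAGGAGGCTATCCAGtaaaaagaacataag
Both lie within the coding sequence in all annotated transcripts that hold them with these introns (11 and 4), and both keep the reading frame.

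The subunits of canonical BAF had smaller ratios. Arid1a encodes the AT-rich interaction domain protein that is among the SWI/SNF subunits most often mutated in cancer. It had 27731 and 28664 reads in siControl (Veh and Dex) and 14942 and 24423 in siArglu1 (Veh and Dex), at 51.6, 49.5, 27.6 and 34.7 cRPKM. The log2 ratio was -0.87 (-0.90 to -0.84) in vehicle, just past the threshold, and -0.52 (-0.54 to -0.50) in Dex, short of it. Genes of similar length had medians of -0.42 and -0.24. Among them, 13% had a lower ratio than Arid1a in vehicle and 18.5% in Dex.

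Arid1b, the paralog that takes the place of ARID1A in a separate set of BAF complexes, had 6894 and 6911 reads in siControl (Veh and Dex) and 4073 and 6325 in siArglu1 (Veh and Dex). The levels were 9.25, 8.60, 5.42 and 6.48 cRPKM, so both siArglu1 libraries were again below both controls. The log2 ratio was -0.74 (-0.79 to -0.68) in vehicle and -0.42 (-0.47 to -0.37) in Dex, and neither passed the threshold. This is the longest of the 10 genes, at 11.3 kb of mappable sequence, and genes of similar length had medians of -0.55 and -0.29. Its differences from those medians, -0.18 and -0.12, were within the spread of these genes, 38.5% and 40.0% of which had lower ratios. The cassette exon of Arid1b whose inclusion differed most in the vehicle pair is shown in the same notation.
Arid1b exon of 111 nt, chr17:5126914-5127024: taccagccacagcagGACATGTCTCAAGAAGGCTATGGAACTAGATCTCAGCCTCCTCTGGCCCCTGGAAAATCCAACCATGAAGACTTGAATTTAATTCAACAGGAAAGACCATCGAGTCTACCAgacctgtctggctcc

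The ATPase genes parted from each other. Smarca2 (BRM) had 5640 and 5395 reads in siControl (Veh and Dex) and 3064 and 3903 in siArglu1 (Veh and Dex), at 14.9, 13.2, 8.03 and 7.87 cRPKM. Both siArglu1 libraries were below both controls, by a log2 ratio of -0.86 (-0.92 to -0.79) in vehicle and -0.76 (-0.82 to -0.70) in Dex. The first interval spans the threshold of -0.81, and so does the second. Genes of similar length were at -0.33 and -0.17, so that Smarca2 lay 0.52 and 0.59 below them.

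Smarca4 (BRG1), the ATPase with the higher level, had 23974, 25339, 20325 and 32194 reads, at 57.5, 56.4, 48.4 and 59.0 cRPKM. Only siArglu1 Veh stood below the other libraries. Its log2 ratio was -0.22 (-0.24 to -0.19) in vehicle and 0.06 (0.03 to 0.08) in Dex, and in both pairs it was higher than the median of genes of similar length, by 0.19 and 0.28. The ratio of Smarca4 to Smarca2 in cRPKM was 3.86 (3.75 to 3.98) and 4.27 (4.14 to 4.40) in siControl (Veh and Dex) and 6.02 (5.80 to 6.26) and 7.49 (7.25 to 7.75) in siArglu1 (Veh and Dex). Their intervals do not overlap between any of the 4 libraries, and both siArglu1 libraries had the higher values. A coding exon of Smarca2 is shown in the notation used above, since its inclusion differed most between Dex and vehicle after knockdown among the simple cassette exons of these genes. Its splicing values are given below.
Smarca2 exon of 54 nt, chr19:26834368-26834421: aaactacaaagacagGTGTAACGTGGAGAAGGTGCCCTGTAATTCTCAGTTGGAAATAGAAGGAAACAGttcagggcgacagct

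Among the 4 core genes, the ratio in vehicle followed the order of their lengths, lowest for the longest. Smarcc1, a SWIRM and SANT domain scaffold on which the complex is built, had 20008 and 20846 reads in siControl (Veh and Dex) and 13405 and 20107 in siArglu1 (Veh and Dex), at 54.0, 52.2, 35.9 and 41.4 cRPKM. The log2 ratio was -0.56 (-0.59 to -0.52) in vehicle and -0.34 (-0.37 to -0.31) in Dex, while genes of similar length were at -0.31 and -0.15. Its paralog Smarcc2, built of the same domains, had 12040, 12512, 9596 and 14912 reads, at 37.3, 36.0, 29.5 and 35.3 cRPKM. The log2 ratio of Smarcc2 was -0.30 (-0.34 to -0.27) in vehicle and -0.04 (-0.07 to 0.00) in Dex, near the medians of -0.22 and -0.09 for its length. The ratio of Smarcc1 to Smarcc2 went from 1.45 in both siControl libraries to 1.22 in siArglu1 Veh and 1.17 in siArglu1 Dex.

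Smarcd1 and Smarcb1 had the smallest knockdown ratios in vehicle, both within 0.12 of zero. Smarcd1, one of the interchangeable subunits that contact transcription factors and nuclear receptors, had 16151, 16801, 14733 and 20288 reads, at 82.3, 79.4, 74.5 and 78.9 cRPKM. The log2 ratio was -0.11 (-0.14 to -0.08) in vehicle and -0.02 (-0.05 to 0.01) in Dex. Smarcb1, the core subunit lost in rhabdoid tumors, had 12456, 13937, 13327 and 17072 reads, at 117, 121, 124 and 122 cRPKM. Its log2 ratio was 0.12 (0.08 to 0.16) in vehicle, where it alone of the 10 had a value above zero, and 0.00 (-0.03 to 0.04) in Dex. They are the shortest of the 10 genes, at 1.61 kb for Smarcb1 and 2.97 kb for Smarcd1, and genes of their length had medians of 0.24 and -0.08 in vehicle.

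**Figure D2:**
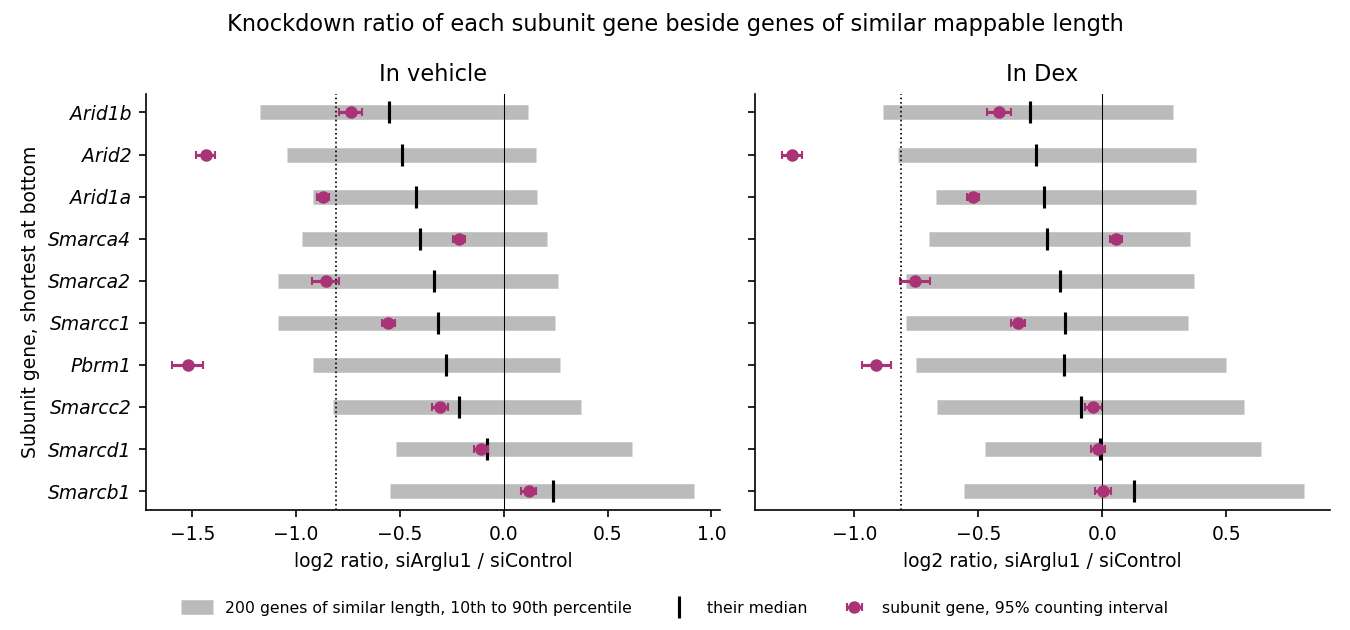
log2 ratio of siArglu1 to siControl in vehicle (left) and Dex (right) for each subunit gene, shortest at the bottom. Points are the subunit genes with 95% counting intervals, gray bars the 10th to 90th percentile of the 200 genes nearest in mappable length, black marks their median and the dotted line -0.81. Arid2 and Pbrm1 lie to the left of the gray bar in both panels, and the other 8 genes lie inside it.

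Setting each gene against its length left fewer genes past the threshold. With the trend on mappable length removed over all genes, 2 of the 10, Pbrm1 at -1.25 and Arid2 at -0.97, were lower by 0.81 or more in vehicle, and 1 of the 10, Arid2 at -1.02, in Dex. Over the 12484 genes of known length, 7.10% were then lower by that size in vehicle and 5.60% in Dex. Pbrm1 was then at -0.78 in Dex, Smarca2 at -0.55 and -0.61, and Arid1a at -0.42 and -0.29. The part of transcript length in these ratios was not tested further. Fitted to all 4 libraries at once with edgeR's quasi-likelihood test, as knockdown plus Dex with 1 residual degree of freedom, 6 of the 10 were lower at a Benjamini-Hochberg adjusted p of 0.05, against 30.9% of all genes tested. These were Pbrm1, Arid2, Arid1a, Smarca2, Arid1b and Smarcc1. The same design in DESeq2 also called 6 of the 10 lower, against 25.2% of all genes.

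Dex had small ratios on these genes at 4 h. In siControl, 0 of the 10 reached a log2 ratio of 1 in either direction, against 0.464% of all genes tested. The ratios ran from -0.16 (-0.22 to -0.11) for Smarca2 to 0.06 (0.03 to 0.10) for Smarcb1, with a median of -0.04. After knockdown, again 0 of 10 reached 1, against 0.400% of all genes. Over all 4 libraries, edgeR called 0 of the 10 for Dex at an adjusted p of 0.05 (1.04% of all genes) and DESeq2 called 0 (0.416%). At an unadjusted p of 0.05 the counts were 1 of 10, Pbrm1, with edgeR (5.28% of all genes) and 0 of 10 with DESeq2 (1.83%). The model fits 1 Dex effect to both pairs, 0.25 for Pbrm1, whereas the ratios of this gene were -0.04 in siControl and 0.57 in siArglu1.

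The ratios of Dex to vehicle after knockdown were mostly above zero. They ran from -0.06 for Smarca2 to 0.57 (0.49 to 0.65) for Pbrm1, and 8 of the 10 were positive, with a median of 0.20. Genes of similar length were also shifted, with medians of 0.10 to 0.24 for the 8 genes of more than 4 kb. Only Pbrm1 lay outside the 10th to 90th percentile on the upper side, by 0.46 above its median of 0.11. This pair shares the library siArglu1 Veh with the knockdown in vehicle. The difference between the knockdown ratio in Dex and that in vehicle, which uses all 4 libraries, was 0.61 (0.52 to 0.71) for Pbrm1 and 0.14 for genes of its length. For the other 9 genes it lay between 0.07 below (Smarca2) and 0.14 above (Arid1a) the median for their length. Smarca2, which was below zero in both Dex pairs, was 0.13 (siControl) and 0.18 (siArglu1) below the median for its length.

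The remaining SWI/SNF subunits were taken from a list of 20 genes, 18 of which passed the minimum of reads (Bcl11a and Bcl11b did not). None of the 18 was past 0.81 in either knockdown pair or past 1 in either Dex pair. Their median log2 ratio was -0.02 in vehicle and -0.01 in Dex, with 9 genes on each side of zero in both pairs. They were also shorter, with a median of 2.44 kb. The PBAF partners of Arid2 and Pbrm1 on this list, Brd7 (bromodomain) and Phf10 (PHD finger), were level: Brd7 at 28.5, 28.8, 29.5 and 29.1 cRPKM and Phf10 at 101, 105, 108 and 100 cRPKM in the siControl (Veh, Dex) and siArglu1 (Veh, Dex) libraries. Their log2 ratios were 0.08 and 0.13 in vehicle and 0.01 and -0.08 in Dex.

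Among the DPF proteins, which read histone acylation in BAF, Dpf1 had the lowest ratio of the 18 in both pairs, at -0.71 in vehicle and -0.68 in Dex. Genes similar to Dpf1 in length had medians of 0.16 and 0.11, so that it lay 0.86 and 0.79 below them. In both pairs it was also below their 10th percentile (-0.57 and -0.52). Dpf2 was at -0.46 and -0.40. Dpf1 went from 15.4 and 14.7 cRPKM in the siControl libraries to 9.21 and 9.22 in the siArglu1 libraries. Dpf3 stood at 4.97 to 5.99 cRPKM in all libraries. The cRPKM ratio of Dpf2 to Dpf1 was 2.53 and 2.54 in siControl (Veh and Dex) and 3.02 and 3.07 in siArglu1. That of Dpf2 to Dpf3 went the other way, from 6.52 and 6.21 to 5.23 and 5.69. Bcl7c had the highest knockdown ratio of the 18, 0.77 in vehicle and 0.61 in Dex. Its levels were 25.1 and 24.2 cRPKM in siControl (Veh and Dex) and 41.8 and 37.2 in siArglu1. Its paralogs Bcl7a and Bcl7b had ratios of -0.10 and 0.13 in vehicle.

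Smarce1, the HMG-box core subunit, was between 105 and 117 cRPKM in the 4 libraries. The actin-related Actl6a (84.1 to 87.7 cRPKM) was 10.8 to 12.97 times the level of its neuronal paralog Actl6b (6.70 to 7.83). Ss18, the progenitor form of another exchanged pair, was 6.43 to 9.35 times as high as the neuronal Ss18l1, and this ratio was lower in the siArglu1 libraries (7.02 and 6.43) than in the siControl libraries (8.96 and 9.35). Smarcd1 exceeded Smarcd2 by 5.25 to 6.54 times and Smarcd3 by 29.9 to 33.0 times. Brd9 and the Gltscr1 and Gltscr1l proteins mark the non-canonical BAF form, and their ratios in vehicle were -0.20, -0.45 and -0.55, where genes of similar length had medians of 0.10, -0.28 and -0.43. In Dex the ratios of these 3 genes were -0.15, 0.06 and -0.24.

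**Figure D3:**
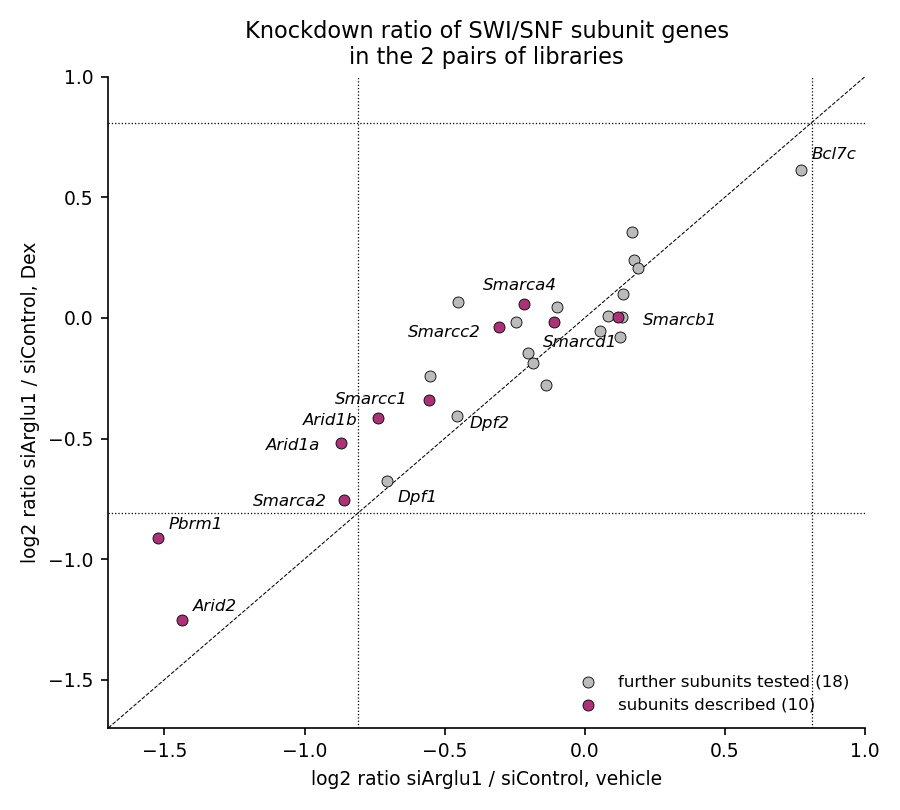
log2 ratio of siArglu1 to siControl in vehicle (x axis) against that in Dex (y axis) for SWI/SNF subunit genes, colored for the 10 genes described and gray for the 18 further subunits, with dotted lines at 0.81 and -0.81 and a dashed line of equality. Arid2 and Pbrm1 are the only points past -0.81 on both axes, and no point is past 0.81 on either.

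Other ATP-dependent remodelers gave a scale for these values. Of the CHD family, 2 of 9 genes were lower by 0.81 or more in vehicle and 0 of 9 in Dex, with medians of -0.53 and -0.21. Of an ISWI group with its partners, 1 of 10 tested was lower in vehicle and 0 in Dex, with medians of -0.52 and -0.28. The additive edgeR model called 7 of the 9 CHD genes and 7 of the 10 ISWI genes lower, beside 6 of the 10 SWI/SNF subunits. DESeq2 called 6 of 9 and 7 of 10 lower, so such counts were not particular to SWI/SNF. After removal of the length trend, the medians in vehicle were -0.20 for the 10 SWI/SNF subunits, -0.12 for the 18 further subunits, -0.08 for the CHD family and -0.15 for the ISWI group.

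Reads across splice junctions gave a second view of the same transcripts. The tables of alternative 3' and 5' splice sites (Alt3 and Alt5) state junction reads per event, and events with a donor and an acceptor site in common were taken once, as the 5'-most of them. This left 2 to 11 events for each of the 10 genes. Arid2 had 4 events with at least 20 reads in siControl Veh, and every one was lower after knockdown. The 3'-most of them had 152 and 152 reads in siControl (Veh and Dex) and 21 and 59 in siArglu1 (Veh and Dex). Over these events the log2 ratio of Arid2 was between -2.93 and -2.14 in vehicle and between -2.08 and -1.56 in Dex. Arid1a had 4 such events, at -2.08 to -1.23 in vehicle, and its 5'-most had 380, 367, 115 and 244 reads. Pbrm1 had 5, at -2.86 to -1.08 in vehicle and -1.74 to -0.83 in Dex. Summed over events, the log2 ratio in vehicle was -2.65 for Arid2, -1.71 for Arid1a and -1.63 for Pbrm1, against -1.44, -0.87 and -1.52 for their whole-gene reads. All 6 events of Smarcd1 were also lower in both pairs, with a summed ratio in vehicle of -0.50 against -0.11 for its whole-gene reads. For Smarca4, Smarcc2 and Smarcb1 the summed ratios were -0.19, -0.30 and 0.07, against -0.22, -0.30 and 0.12.

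Along Smarca4 the ratio was higher toward the 3' end. Counted in this way, the gene had 11 events over 63.6 kb. At the 5'-most the reads went from 290 in siControl Veh to 173 in siArglu1 Veh, at a log2 ratio of -0.72, and the 3'-most had 865 and 984, at 0.21. In the Dex pair these ends of Smarca4 were at -0.19 and 0.13. The last event of Smarcc2 was the only one of its gene above zero in vehicle, from 67 reads in siControl Veh to 146 in siArglu1 Veh (log2 ratio 1.14) and from 82 in siControl Dex to 184 in siArglu1 Dex (0.87), while the other 6 of that gene were between -0.78 and -0.24 in vehicle. Over 4457 genes with such events at least 1 kb apart, the 3'-most event had the higher ratio in 82.1% of genes in vehicle and 74.7% in Dex, with a median rise of 0.33 and 0.18. The median log2 ratio of these genes in vehicle was -0.38 at the 5'-most event and -0.004 at the 3'-most. For Dex in siControl the share was 56.4%, with a median difference of 0.03. For Dex in siArglu1 it was 30.3%, with a median of -0.13, so that after knockdown the 3'-most event mostly had the lower ratio of Dex to vehicle. The part of this slope in the ratios of the long subunit genes was not tested.

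**Figure D4:**
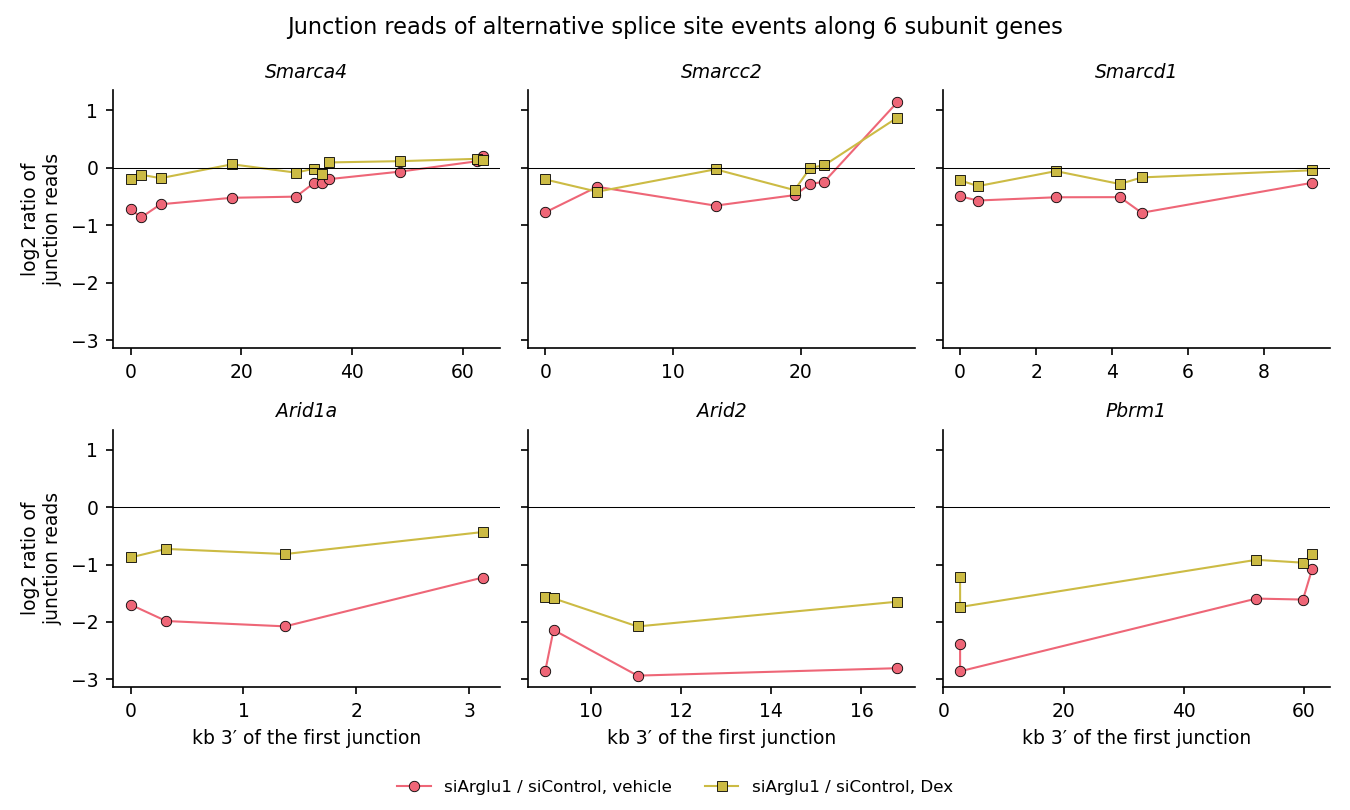
log2 ratio of siArglu1 to siControl for junction reads of Alt3 and Alt5 events (y axis) against the distance in kb from the first event listed for the gene (x axis), for events with at least 20 reads in siControl Veh, taken once where they share a junction, circles for vehicle and squares for Dex. Points of Smarca4 climb from -0.72 to 0.21 in vehicle, and every point of Smarcd1, Arid1a, Arid2 and Pbrm1 lies below zero.

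Few splicing events differed between libraries, in the 10 genes as over all genes. Percent spliced in (PSI) gives the inclusion of an exon, or the use of a splice site, on a scale up to 100. The tables listed 123 events in these genes (70 cassette exons, 36 Alt3 and 17 Alt5) and no microexon, and 115 were covered, with a PSI in every library and coverage scored at least LOW in 3 of them. Of these 115, 2 differed by 15 PSI or more on knockdown in vehicle, both in Pbrm1, against 1.96% of the 57183 covered events of all genes. For knockdown in Dex it was 0 of 115 (1.52% of all events), for Dex in siControl 0 (0.719%) and for Dex in siArglu1 2 (0.948%). In vehicle, 105 of the 115 events were within 5 PSI, a share that was not counted over all genes. Of the 68 covered cassette exons, 55 were included at more than 90 PSI in every library, 2 were under 10 in every library and 11 were in between or crossed these bounds. Every one of the 34 Alt3 and 13 Alt5 events covered was under 15 PSI in all 4 pairs.

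The Pbrm1 events rested on low coverage. Its exon of 153 nt (chr14:31838684-31838836) had a PSI of 98.5 and 98.1 in siControl (Veh and Dex) and of 70.5 and 94.1 in siArglu1 (Veh and Dex). The exon of 104 nt upstream (chr14:31836253-31836356) was at 44.1 and 32.0 in siControl and at 28.6 and 28 in siArglu1. Both were scored VLOW in siArglu1 Veh, the library in which Pbrm1 had its fewest reads, so neither difference of 28.1 and 15.6 PSI has a well covered value on the siArglu1 side. In the Dex pair the differences were 3.99 and 3.96 PSI.

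The exon of 96 nt of Pbrm1 printed above was scored OK or better in all libraries. Its PSI was 24.4 and 23.8 in siControl (Veh and Dex) and 13.2 and 22.1 in siArglu1 (Veh and Dex), so that siArglu1 Veh alone was lower, by 11.2 PSI. The exon of 45 nt was at 22.4 to 25.9. Of the others, an exon of 165 nt was at 28.1 to 32.9 and one of 156 nt at 80.8 to 87.8. Pbrm1 thus had 6 of the 11 variable cassette exons of these genes, and 21 of their 68 covered cassette exons. Its exon of 153 nt is among the 6 only through the PSI of 70.5 in siArglu1 Veh, scored VLOW.

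The events past 15 PSI for Dex in siArglu1 were this Pbrm1 exon of 153 nt, 23.6 higher in Dex, and the Smarca2 exon of 54 nt. The latter was at 20.6 in siControl Veh and 27.7 in siArglu1 Veh, and at 11.3 and 10.5 in the Dex libraries of siControl and siArglu1. Both Dex libraries were below both vehicle libraries, by 9.31 PSI in siControl and 17.1 in siArglu1, and the coverage in siArglu1 Veh was scored LOW. The share of all events with such an order was not counted. The Arid1b exon of 111 nt was lowest in siControl Veh, at 12.1, against 19.5 to 21.3 in the others. Its difference on knockdown was 8.60 PSI in vehicle and 1.74 in Dex. For the other 7 genes the largest difference of a covered event on knockdown in vehicle, in either direction, was 4.10 PSI for Arid2, 4.08 for Smarca4, 3.66 for Smarcc2, 1.85 for Arid1a, 0.96 for Smarcb1, 0.86 for Smarcd1 and 0.75 for Smarcc1. That of Smarcc1 was a cassette exon of 120 nt, and the others were Alt3 (Arid2, Smarca4 and Arid1a) or Alt5 events. The deposited cassette exon values come with a coverage class and without reads, so no interval can be given.

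**Figure D5:**
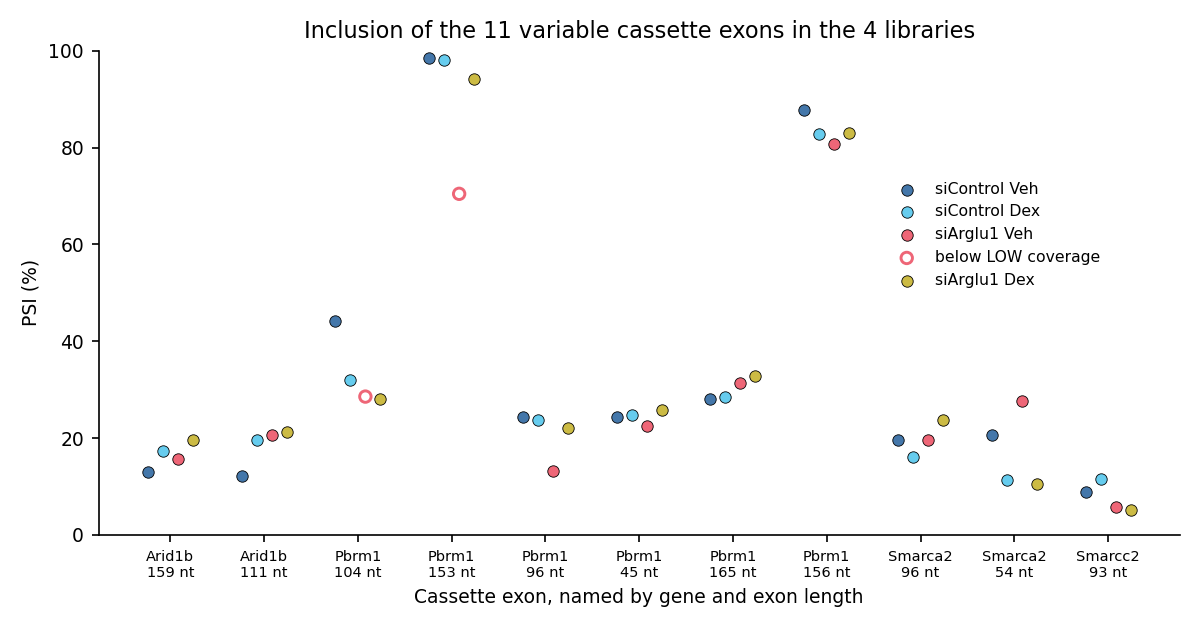
PSI in percent (y axis) of the 11 cassette exons of these genes that were neither above 90 nor under 10 in every library, named by gene and length, with 1 point per library. Open circles have coverage below LOW. The 4 points of most exons lie close together, and the open circle of the Pbrm1 exon of 153 nt, at 70.5, is the farthest from the others.

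The hexamers CGGAGG and CGGGGG, named by the study for the binding of ARGLU1 to RNA in vitro, were searched on the sense strand. None of the 4 exons printed above holds either. Among annotated exons of the same length, 2.18% of those of 54 nt, 3.96% of 96 nt, 2.09% of 45 nt and 4.06% of 111 nt do. In the longest annotated coding sequence, Arid1a and Arid1b had 7 matches each, Smarca2 had 4, Arid2, Smarcc1 and Smarcc2 had 2, Pbrm1, Smarca4 and Smarcd1 had 1 and Smarcb1 had 0. Counted per kb, the highest values were those of Arid1a and Arid1b, at 1.02 each, and Smarca2, at 0.83, where the 200 coding sequences nearest in length had a median of 0.30 in all 3 cases. Smarcd1 (0.65), Smarcc1 (0.60) and Smarcc2 (0.55) were also above the medians for their length, which were 0.00, 0.31 and 0.28. Pbrm1, the gene with the lowest ratio in vehicle, held 0.20 matches per kb, Smarca4 0.21 and Arid2 0.36, against medians of 0.29, 0.30 and 0.27. Of the coding sequences near Pbrm1 or Arid2 in length, 75.5% held at least 1 match, and 84% did so for Arid1a or Arid1b. These comparisons matched length and not base composition. The share of G and C was 59.6% in Arid1a, 60.7% in Arid1b, 53.0% in Smarca2, 56.6% in Smarca4, 49.7% in Arid2 and 44.5% in Pbrm1. The median over all coding sequences was 53.4%. The paper reports that such sites were not globally enriched around alternatively spliced exons.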

How the data were processed

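N2a cells were profiled in 4 groups, 1 library per group, each from the pooled mRNA of 3 cultures, polyA-selected and run by the authors on a HiSeq2500. The authors deposited a table with the count of reads per gene, not normalized, and an RPKM corrected for mappability (cRPKM, 2 decimals). A gene without a read is blank in it and was taken as 0. The authors also deposited PSI values, as a percent, for cassette exons, Alt3 and Alt5 events, with coverage classes and, for the last 2 kinds, junction reads. Bowtie and mm9 are named in the submitters' processing notes. The role and version of each: not given in the sources used here. For PSI, vast-tools is named in the paper. In the expression table, 2 unnamed columns hold the authors' ratios of Dex to Veh and were not used.

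Reads were scaled with TMM factors (edgeR 4.0.16, R 4.3.3) and log2 ratios taken with a prior count of 1, for 12497 genes whose reads over all libraries summed to 75 or more. The sizes that counted as past the threshold were 0.81 (knockdown), 1 (Dex) and 15 PSI. Intervals at the 95% level are exact, condition on the reads of both libraries and cover counting error only. Depth was 66074574 to 86541444 reads on genes per library. A p-value measures only the spread of these 4 pooled libraries around an additive design (edgeR, DESeq2 1.42.0, Benjamini-Hochberg adjustment), which assumes that knockdown and Dex add up. Mappable length was taken from reads and cRPKM and was known for 12484 of the genes. Junction ratios used the reads stated for each event, with events that share a donor and an acceptor taken once, a prior of 0.5 reads and, for ranges, events with at least 20 reads in siControl Veh. The fits and counts were tested on simulated data.

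All 10 members were named, with each further subunit at 1 cRPKM or more in any library. Of splicing events, those past 15 PSI in any pair and the largest difference of each member on knockdown in vehicle were named, and the other variable exons of Pbrm1 were added after their values were seen. Members and lists were chosen with earlier results of these data known. Exons printed were matched to GENCODE M21 by exon and intron lengths. Of 11 variable exons, 8 matched. Alternatives were other scaling, prior counts, thresholds, minimums, cRPKM as deposited, removal of the length trend (lowess), a length window of 10%, the additive models and, added after seeing the data, junction reads.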

Additional observations from a re-analysis of the deposited data

Results flagged for a closer look

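Several subunit genes had ratios on opposite sides of zero under the same contrast in the 2 states of the other factor, with a 95% counting interval that left out zero in both. With 1 library per group these differences were not tested, and all the ratios named are smaller than the thresholds used in the report. The share of all genes that meet this rule was not counted. On knockdown, Smarca4 was at -0.22 in vehicle and 0.057 in Dex on the log2 scale. For Dex, Smarcb1 was higher in siControl (0.062) and lower in siArglu1 (-0.053). Smarcc1, Smarcc2, Smarcd1, Arid1a and Arid1b went the opposite way. Smarcc1 was at -0.040 in siControl and 0.17 in siArglu1, and Smarcc2 at -0.044 and 0.23. Smarcd1 was at -0.043 and 0.051. Arid1a was at -0.052 and 0.30, and Arid1b at -0.096 and 0.22. Genes of similar mappable length had medians below zero in siControl and above zero in siArglu1 for Smarcc1, Smarcc2, Arid1a and Arid1b as well. For Smarcb1 these medians also turned as its ratios did, from 0.010 in siControl to -0.091 in siArglu1. For Smarcd1 they were above zero in both. Pbrm1 (-0.045 and 0.57), Smarca4 (-0.020 and 0.25) and Arid2 (-0.028 and 0.16) also had opposite signs for Dex, but their intervals in siControl include zero.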

How the results depend on the processing

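Each group has 1 library, so leaving out a replicate was not possible. No paired analysis was possible because every group has a single library with the number 1, so that no number pairs samples; the additive models compare knockdown within each treatment. The 4 and 2 members lower on knockdown in vehicle and in Dex became 2 and 1 with the length trend removed, 6 and 4 at a threshold of 0.5, and 1 and 0 at 1.5. The additive edgeR and DESeq2 models, with 1 knockdown effect for both pairs, called 6 each. Junction reads, an alternative chosen after seeing the data, gave 6 lower (summed) and 7 past the threshold (3'-most event) in vehicle, and 2 and 3 in Dex. With the 3'-most event, 6 and 2 were lower and Smarcc2 was higher, at 1.14 in vehicle and 0.87 in Dex against -0.30 and -0.04 for its whole-gene reads. For Dex in siArglu1 the count of 0 became 1 at a threshold of 0.5, with summed junction reads and with the 3'-most event. Of the further subunits, none was past the threshold on knockdown, but 2 were in vehicle with no minimum on reads. Dropping the minimum brings in only Bcl11a and Bcl11b, which went from 20 to 9 and from 2 to 0 reads in that pair. At a threshold of 0.5, 3 were past it in vehicle and 2 in Dex. The additive models called 6 with edgeR and 4 with DESeq2 in either direction, of which 3 were lower with each tool. Over all genes tested, 30.9% (edgeR) and 25.2% (DESeq2) were called lower. Covered splicing events past 15 PSI, 2 on knockdown in vehicle, 0 on knockdown in Dex, 0 for Dex in siControl and 2 for Dex in siArglu1, became 6, 4, 3 and 6 with no coverage minimum. They became 0 in all pairs with OK coverage in every library. At 10 PSI they were 3, 0, 1 and 2, and at 25 PSI 1, 0, 0 and 0. Without complex or unbalanced events they were 0, 0, 0 and 1. Other scalings, other prior counts, no minimum on reads and cRPKM as deposited again gave 4 and 2 members, and no member past a threshold in the comparisons as reported changed sign under the alternatives run. Where neither a threshold nor a filter was changed, the cause of a changed count was not tested. Low coverage of Pbrm1 in siArglu1 Veh limits its splicing values.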
